A study of Homo sapiens with 12 samples.

Results

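The troponin genes were examined in cardiomyocytes differentiated from H1 cells, an established human embryonic stem cell line of wild-type genotype. Troponin is the calcium switch of the sarcomere: troponin C binds calcium, troponin I inhibits the actin-myosin interaction, and troponin T anchors the complex to tropomyosin on the thin filament. Each subunit is encoded by separate genes for slow skeletal, fast skeletal and cardiac muscle, and slow skeletal and cardiac muscle share one troponin C. The fetal heart uses the slow skeletal troponin I TNNI1, which cardiac troponin I TNNI3 replaces around and after birth, so the relation of TNNI3 to TNNI1 is a common readout of cardiomyocyte maturation. The members were the 8 genes whose symbol in the deposited table is TNNI1, TNNI2, TNNI3, TNNT1, TNNT2, TNNT3, TNNC1 or TNNC2, out of 61806 genes, each found once.

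RNA-seq was done on Day 12 and Day 16 in 3 treatments with 2 libraries each, 12 libraries in all. All cells had been induced to mesendoderm progenitors, the common precursors of mesoderm and endoderm. In NP-IWP2 they were left unpassaged and given IWP2, a WNT inhibitor used to direct progenitors to the heart. In P-DF they were dissociated and re-plated on Day 2, after which they differentiated spontaneously in DF medium without IWP2. P-IWP2 combined the same re-plating with IWP2. No group was without both passaging and IWP2, so P-IWP2 differs from NP-IWP2 by passaging, and P-DF differs from it by passaging and the absence of IWP2, which cannot be told apart there. Passaging stands for the whole step of dissociation and re-plating, and the cell density and additives at re-plating cannot be told apart from it. The cells are 1 line, and the labels do not say whether the 2 libraries of a group came from separate cultures, so a p-value measures the spread between these libraries, which may be technical.

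The libraries held 14885589 to 19176239 counted reads, and a count of 0 allows up to 0.202 CPM (counts scaled to the library total), for counting error only. All 12 cardiomyocyte genes other than troponins (among them MYH6, MYH7, MYL7 and TTN) were detected in every library, with summed levels of 2378 to 12915 FPKM (reads scaled to exon length and library total), while the pluripotency genes POU5F1, NANOG and SOX2 summed to at most 0.83 FPKM. Of 13 skeletal muscle genes, 4 passed the filter on low counts. The myogenic factor MYF5 and the fetal myosin MYH8 were at 0 in every library, and MYOD1 reached 0.04 FPKM in 1 library. Other members were detected at low levels: ACTN3 was at 0.35 to 4.74 FPKM and MYH3 at 0.27 to 2.82 FPKM. MYOG reached 0.21 FPKM and PAX7 0.3 FPKM. CKM, which heart and skeletal muscle share, made up most of the skeletal muscle sum of 35.1 to 298 FPKM. The Day 12 library P-IWP2 replicate 5 stood apart. Its cardiomyocyte genes summed to 2378 FPKM against 5268 to 6077 FPKM in the other Day 12 libraries, and its epicardial genes to 134 FPKM against at most 48.1 FPKM. Its fibroblast sum of 673 FPKM was near the 700.5 and 681 FPKM of Day 12 NP-IWP2. It was far above the 31.6 FPKM of replicate 6 of the same group. All 6 groups shared 1 estimate of the spread, so this discordant pair entered the errors of every comparison. Calls of troponins, and counts over gene lists, are therefore given with and without replicate 5. Without it, 1 library stands for Day 12 P-IWP2 and is assumed to vary like the other groups.

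The troponin genes lie in pairs. On GRCh38, TNNT1 (chromosome 19, 55132698 to 55149206) and TNNI3 (chromosome 19, 55151767 to 55157773) are 2.56 kb apart, TNNT2 (chromosome 1, 201359008 to 201377764) and TNNI1 (chromosome 1, 201403768 to 201429866) are 26.0 kb apart, and TNNI2 (chromosome 11, 1838981 to 1841680) and TNNT3 (chromosome 11, 1919703 to 1938706) are 78.0 kb apart, each pair on one strand. TNNC1 (chromosome 3, 52451100 to 52454041) and TNNC2 (chromosome 20, 45823214 to 45833745) have no troponin neighbor. RefSeq promoters were matched for 3 of the 8 genes, TNNI3, TNNT1 and TNNT2. All 3 are shown. From Day 12 to Day 16 the neighbors TNNI3 and TNNT1 both rose in passaged cells. In NP-IWP2 the log2 change was 1.93 ± 0.59 (SE) for TNNT1 (adjusted p = 0.126, edgeR) and -0.10 ± 0.37 for TNNI3 (adjusted p = 0.909, edgeR). No change of TNNT2 passed the test with all 12 libraries. Each line gives the 250 bases before the RefSeq start site (GRCh38.p14, minus strand, 5′ to 3′): chr19:55157733-55157982 for TNNI3, chr19:55149207-55149456 for TNNT1 and chr1:201377681-201377930 for TNNT2. Capitals mark GATA, the core bound by GATA factors, and CATTCC, the M-CAT element bound by TEAD factors, on either strand.
TNNI3 promoter: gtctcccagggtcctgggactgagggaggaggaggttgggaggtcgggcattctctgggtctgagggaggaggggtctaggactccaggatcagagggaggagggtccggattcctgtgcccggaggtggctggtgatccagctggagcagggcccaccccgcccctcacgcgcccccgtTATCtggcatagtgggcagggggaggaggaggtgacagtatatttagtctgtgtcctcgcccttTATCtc
TNNT1 promoter: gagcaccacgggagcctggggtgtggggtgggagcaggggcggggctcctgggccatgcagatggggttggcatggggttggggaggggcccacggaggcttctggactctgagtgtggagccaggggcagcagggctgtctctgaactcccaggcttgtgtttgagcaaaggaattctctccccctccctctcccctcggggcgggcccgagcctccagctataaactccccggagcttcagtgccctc
TNNT2 promoter: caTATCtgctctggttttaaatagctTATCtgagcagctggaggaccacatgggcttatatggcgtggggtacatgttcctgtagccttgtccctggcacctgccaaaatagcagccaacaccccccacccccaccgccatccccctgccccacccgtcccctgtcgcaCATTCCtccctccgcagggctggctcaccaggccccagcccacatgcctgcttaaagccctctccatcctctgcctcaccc
GATA occurred 2 times in the TNNI3 window, 0 times in that of TNNT1 and 2 times in that of TNNT2, and 45.6% of 35116 RefSeq promoter windows of this length held it. CATTCC occurred 1 time, in the TNNT2 window, and in 11.9% of all windows. These matches describe the letters only.

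Slow skeletal and cardiac troponins made up nearly all troponin RNA, and fast skeletal members were close to 0. By mean FPKM over the 12 libraries, TNNC1 stood first (611 FPKM), followed by TNNI1 (167 FPKM), TNNT2 (101 FPKM), TNNI3 (15.1 FPKM), TNNT1 (3.55 FPKM), TNNC2 (1.16 FPKM), TNNI2 (0.0708 FPKM) and TNNT3 (0.0475 FPKM). The ranges of the neighbors TNNI1 (83.5 to 221 FPKM) and TNNT2 (74.8 to 145 FPKM) overlapped, and so did those of TNNC1 (127 to 1392 FPKM) and TNNI1. Fast skeletal TNNI2 had 6 and 4 counts in the Day 16 NP-IWP2 libraries and 0 to 2 counts in all others, and fast skeletal TNNT3 had 0 to 8 counts. Both failed the filter, so 6 of the 8 genes were tested. The sum of the 3 fast skeletal genes was 0.106% to 0.258% of all troponin FPKM as group means.

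**Figure D1:**
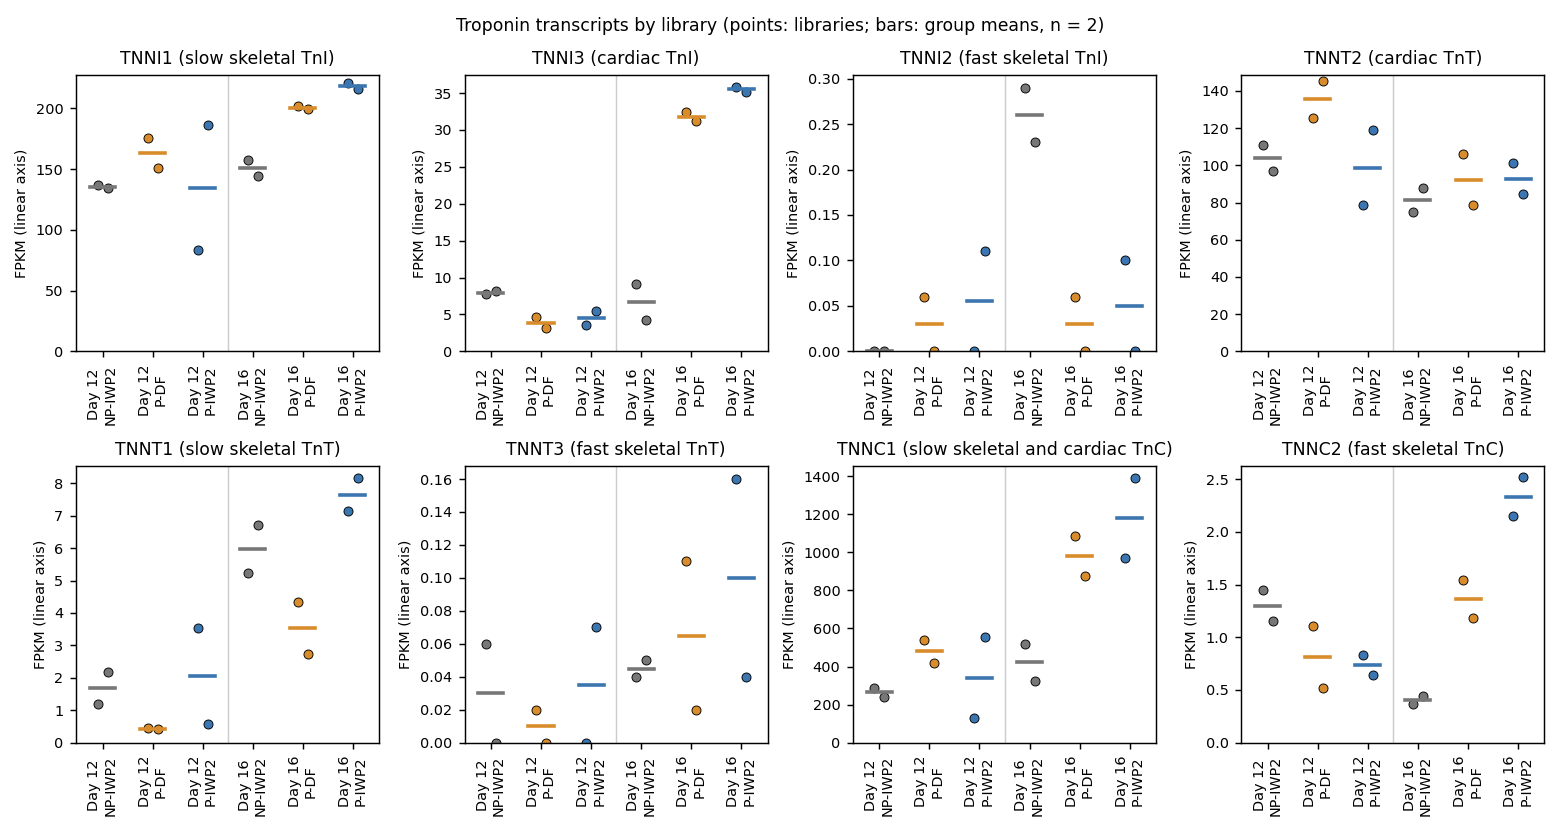
FPKM of the 8 troponin genes in each library (points) and group mean (bar, n = 2), on linear axes from 0 that differ between panels. TNNI3 stood at 31.2 to 35.9 FPKM in the 4 passaged Day 16 libraries and at 3.11 to 9.15 FPKM in the 8 others.

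The order of these genes depends in part on how their length and reads were counted. The FPKM used the exon length of all annotated transcripts together, 7330 bases for TNNT2 against 1165 bases of its MANE transcript (the reference transcript chosen by RefSeq and Ensembl), a factor of 6.29, and 2.41 for TNNI3 but 1.23 for TNNI1. With MANE lengths, TNNT2 (634 FPKM) came before TNNI1 (206 FPKM) and TNNT3 (0.122 FPKM) before TNNI2 (0.103 FPKM). The table also held a second gene without symbol on the same strand as TNNT2, whose exons (GENCODE v44) cover 96.9% of the TNNT2 MANE bases and which received 49 to 155 counts. Another gene without symbol covers 56.8% of the TNNI3 MANE bases and received 0 to 2 counts. The MANE exons of the other 6 troponins overlapped no other gene of the table. By default HTSeq leaves out reads that fall on exons of more than 1 gene, and the setting used is not given, so such reads may be missing from the levels of TNNT2 and TNNI3. Their part in these levels was not tested.

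For cardiac troponin I, passaged and unpassaged cells did not overlap on Day 16. TNNI3 was at 9.15 and 4.31 FPKM in NP-IWP2, 32.4 and 31.2 FPKM in P-DF, and 35.9 and 35.1 FPKM in P-IWP2. All 4 passaged libraries lay above both unpassaged ones, and replicates of the passaged groups lay close together. The log2 fold change against NP-IWP2 was 2.45 ± 0.37 (SE) in P-DF (adjusted p = 0.00392, edgeR's quasi-likelihood test) and 2.65 ± 0.38 in P-IWP2 (adjusted p = 0.00275), and both calls held when each of the 12 libraries was left out in turn. On Day 12 the order was the opposite: TNNI3 was at 7.74 and 8.14 FPKM in NP-IWP2, 4.59 and 3.11 FPKM in P-DF, and 3.62 and 5.53 FPKM in P-IWP2. All 4 passaged libraries lay below both unpassaged ones, but the log2 fold changes of -0.95 ± 0.38 and -0.79 ± 0.37 did not pass the test (adjusted p = 0.188 and 0.472, edgeR). With the Day 12 library P-IWP2 replicate 5 left out, the change in P-DF was -0.96 ± 0.29 and passed it (adjusted p = 0.0313, edgeR), while that in P-IWP2, on 1 library, was -0.43 ± 0.35 (adjusted p = 0.468). The interaction of day and treatment, the log2 fold change against NP-IWP2 on Day 16 minus that on Day 12, was 3.40 ± 0.53 for P-DF (adjusted p = 0.0357, edgeR) and 3.44 ± 0.53 for P-IWP2 (adjusted p = 0.0191, edgeR). These 2 calls were lost in 9 and 6 of the 12 fits that left out 1 library, with adjusted p of up to 0.186 and 0.0980. The call in P-DF was also lost with a replicate block (adjusted p = 0.0746, edgeR), and that in P-IWP2 when only the groups compared were fitted (adjusted p = 0.0899, edgeR).

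TNNI1, the fetal troponin I, showed no change past the test in the main edgeR fit of all 12 libraries. Closest was its rise from Day 12 to Day 16 in P-IWP2, 1.06 ± 0.35 on the log2 scale (adjusted p = 0.0521, edgeR). That rise was called by DESeq2 (adjusted p = 0.00899) and by edgeR with a replicate block (adjusted p = 0.0387). Without the filter on low counts, edgeR called it too, and also higher TNNI1 on Day 16 in both passaged treatments. That fit gave far smaller adjusted p for several troponins at nearly the same fold changes. For TNNI3 in P-DF on Day 16 it was 7.21e-30 in place of 0.00392 (edgeR), so these calls add little support. On Day 16 it was at 158 and 144 FPKM in NP-IWP2, 202 and 199.5 FPKM in P-DF, and 221 and 216.3 FPKM in P-IWP2. The passaged libraries again lay above the unpassaged ones, with log2 fold changes of 0.64 ± 0.35 and 0.81 ± 0.35 that did not pass the test (adjusted p = 0.248 and 0.143, edgeR). When P-IWP2 replicate 5 of Day 12 was left out, the estimates were 0.64 ± 0.13 and 0.81 ± 0.13 and passed it (adjusted p = 0.00161 and 2.65e-04, edgeR). On Day 12 TNNI1 was at 137 and 134 FPKM in NP-IWP2, 175 and 151 FPKM in P-DF, and 83.5 and 186 FPKM in P-IWP2. The 2 Day 12 P-IWP2 libraries lay on either side of all others, so that group gives no direction.

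TNNI1 remained the main troponin I in every group. The share of TNNI3 in the summed FPKM of TNNI1, TNNI2 and TNNI3 on Day 12 was 5.54% ± 0.25 (SD, n = 2) for NP-IWP2, 2.28% ± 0.38 for P-DF and 3.52% ± 0.90 for P-IWP2. On Day 16 it was 4.19% ± 1.82 for NP-IWP2, 13.7% ± 0.21 for P-DF and 14.0% ± 0.0051 for P-IWP2. The SD of P-IWP2 on Day 16 comes from 2 libraries at 13.96% and 13.97% and says little about the true spread. With MANE lengths the shares on Day 16 were 7.85% ± 3.29, 23.7% ± 0.33 and 24.1% ± 0.012, so the level of the share moved while the order of the groups did not.

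**Figure D2:**
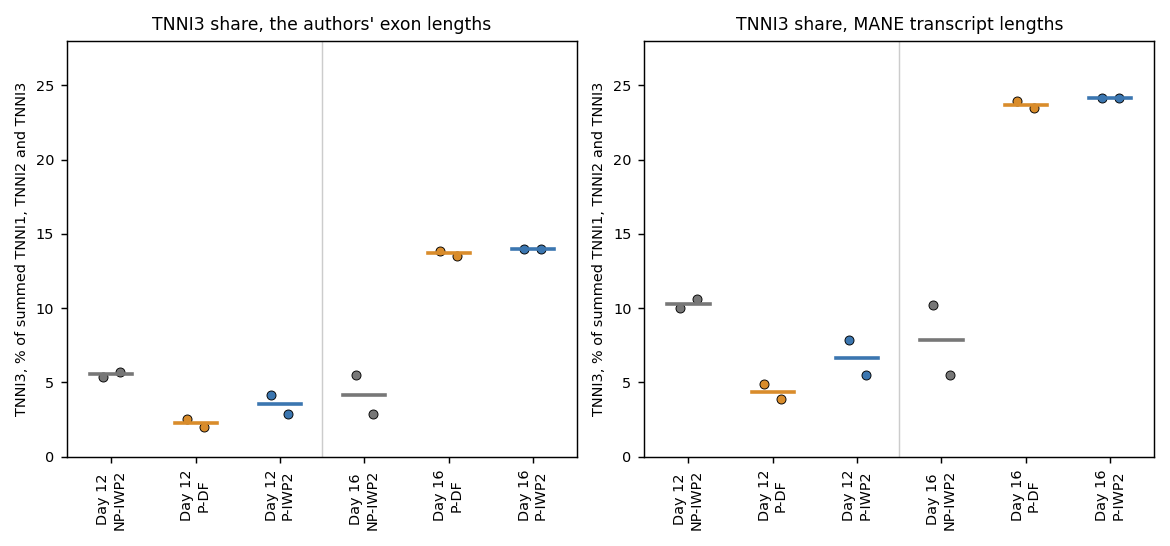
Share of TNNI3 in the summed FPKM of the 3 troponin I genes, in percent, by library (points) and group mean (bar, n = 2), with the exon lengths of the authors (left) and MANE transcript lengths (right). The passaged Day 16 groups lie at 13.7% and 14.0% on the left and at 23.7% and 24.1% on the right.

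The ratio of TNNI3 to TNNI1 differed from that of NP-IWP2 in opposite directions on the 2 days. Relative to NP-IWP2, the ratio (FPKM + 0.1 for both genes) was 0.401 times as high in P-DF and 0.618 times as high in P-IWP2 on Day 12, but 3.76 times and 3.85 times as high on Day 16. As plain ratios, the 2 Day 12 NP-IWP2 libraries were at 0.0567 and 0.0606, and the 2 Day 16 NP-IWP2 libraries at 0.0580 and 0.0299, whereas passaged libraries were at 0.0206 to 0.0434 on Day 12 and at 0.157 to 0.162 on Day 16. Since the directions cancel, the difference averaged over both days was small: 0.30 on the log2 scale for P-DF (p = 0.722, two-sided exact permutation test within days) and 0.62 for P-IWP2 (p = 0.333, exact), where the smallest p allowed was 0.0556. With both passaged treatments together it was 0.46 (p = 0.413, exact permutation test). Day 16 against Day 12 over all treatments gave 1.47 (p = 0.0463, exact permutation test of days within treatments), which became 0.222 after adjustment by Benjamini-Hochberg over the 16 ratio tests. No ratio test passed the threshold after that adjustment. With so few libraries this says little. The smallest two-sided p was 0.0556 for tests of 1 passaged treatment, 0.00444 for both together and 0.00926 for Day 16 against Day 12. The test of TNNT1 to TNNT2 between days, given below, reached its smallest p and was still adjusted to 0.148. Failing to pass is therefore no sign that a ratio was equal. The ratio of TNNI3 to TNNT2, which sets cardiac troponin I against cardiac troponin T, moved the same way: 0.371 and 0.610 times the NP-IWP2 value on Day 12 in P-DF and P-IWP2, and 4.43 and 4.89 times on Day 16 (Day 16 against Day 12, 2.22 on the log2 scale, exact p = 0.0278, adjusted 0.222).

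Cardiac troponin T showed no change that passed the test in any comparison of all 12 libraries. TNNT2 was at 74.8 and 87.8 FPKM in NP-IWP2, 106 and 78.7 FPKM in P-DF, and 101 and 84.6 FPKM in P-IWP2 on Day 16, and the groups overlapped. The log2 fold changes against NP-IWP2 were 0.42 ± 0.25 and 0.47 ± 0.25 (adjusted p = 0.295 and 0.230, edgeR). They differ from the FPKM in size because TMM scaling, which edgeR uses to set libraries of different composition on one scale, gave factors of 0.813 to 1.22. Both passed the test without the Day 12 library P-IWP2 replicate 5 (adjusted p = 0.0400 and 0.0216, edgeR).

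Levels of the slow skeletal troponin T TNNT1 were higher on Day 16 in each treatment. It was at 1.19 and 2.19 FPKM in NP-IWP2, 0.44 and 0.41 FPKM in P-DF, and 3.53 and 0.57 FPKM in P-IWP2 on Day 12. On Day 16 it was at 5.22 and 6.72 FPKM, 4.34 and 2.72 FPKM, and 7.15 and 8.15 FPKM. Every Day 16 library of NP-IWP2 and of P-DF lay above the Day 12 libraries of the same treatment, and so did those of P-IWP2. The highest Day 12 value, 3.53 FPKM or 117 counts, was that of the P-IWP2 replicate 5 library that stood apart. The log2 change from Day 12 to Day 16 was 3.28 ± 0.68 in P-DF (adjusted p = 0.0159, edgeR), 2.38 ± 0.60 in P-IWP2 (adjusted p = 0.0203) and 1.93 ± 0.59 in NP-IWP2 (adjusted p = 0.126). The call in P-DF was lost when any of its 4 libraries was left out (adjusted p 0.0579 to 0.132), and that in P-IWP2 without its Day 16 replicate 6 (adjusted p = 0.108). Without the Day 12 library P-IWP2 replicate 5, the rise passed the test in P-DF, in P-IWP2 (from 1 Day 12 library) and in NP-IWP2, at 3.29 ± 0.36, 4.04 ± 0.43 and 1.94 ± 0.28 (adjusted p = 2.49e-05, 3.63e-05 and 5.85e-04, edgeR). TNNT1 stayed a small part of troponin T, between 0.315% ± 0.048 (Day 12 P-DF) and 7.69% ± 1.54 (Day 16 P-IWP2) of the summed FPKM of the 3 troponin T genes. The ratio of TNNT1 to TNNT2 was 2.62 higher on Day 16 on the log2 scale (p = 0.00926, exact permutation test, the smallest two-sided p that this design allows, adjusted to 0.148).

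TNNC1, the troponin C of heart and slow muscle, had the highest FPKM of the 8 genes in each of the 12 libraries with the exon lengths of the authors, and in 7 of them with MANE lengths, where TNNT2 was above it in the other 5. On Day 16 it was at 518 and 326 FPKM in NP-IWP2, 1086 and 875 FPKM in P-DF, and 968 and 1392 FPKM in P-IWP2, so all passaged libraries lay above the unpassaged ones. The log2 fold changes were 1.43 ± 0.61 and 1.76 ± 0.61 (adjusted p = 0.140 and 0.0778, edgeR), and without the Day 12 library P-IWP2 replicate 5 they were 1.43 ± 0.26 and 1.76 ± 0.26 (adjusted p = 7.74e-04 and 1.66e-04). With DESeq2 and all 12 libraries, the Day 16 change was called in P-IWP2 (adjusted p = 0.0374) and not in P-DF (adjusted p = 0.117). On Day 12 TNNC1 was at 289 and 239 FPKM in NP-IWP2, 542 and 417 FPKM in P-DF, and 127 and 554 FPKM in P-IWP2. TNNC1 rose from Day 12 to Day 16 in P-IWP2, by 2.14 ± 0.62 on the log2 scale (adjusted p = 0.0330, edgeR), a call lost in 8 of the 12 fits that left out 1 library. Without the Day 12 library P-IWP2 replicate 5 the rise was 1.41 ± 0.33 (adjusted p = 0.00775).

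TNNC2, the fast skeletal troponin C, was the one fast member that passed the filter, at 6 to 41 counts per library. It had 6 and 6 counts in NP-IWP2 on Day 16, 21 and 18 counts in P-DF, and 33 and 41 counts in P-IWP2. On Day 12 it had 22 and 16 counts in NP-IWP2, 14 and 7 counts in P-DF, and 11 and 9 counts in P-IWP2. By counts and FPKM the passaged libraries lay above the unpassaged ones on Day 16 and below them on Day 12. On the TMM-scaled log2 CPM used for testing, P-DF replicate 3 (0.04) lay above NP-IWP2 replicate 2 (-0.01) on Day 12, so P-DF and NP-IWP2 overlapped there. The log2 fold change on Day 16 was 1.95 ± 0.46 in P-DF (adjusted p = 0.0225, edgeR) and 2.79 ± 0.45 in P-IWP2 (adjusted p = 0.00454), and the interaction with the day was 3.64 ± 0.62 in P-IWP2 (adjusted p = 0.0275) and 2.55 ± 0.63 in P-DF (adjusted p = 0.132). The Day 16 call in P-DF was lost without any 1 of the 4 libraries compared (adjusted p 0.0865 to 0.128), that in P-IWP2 in none of the 12 fits, and the interaction in P-IWP2 in 8 of them. The ratio of TNNC2 to TNNC1 stayed between 0.00103 and 0.00492 as group means.

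Counted over the 6 tested troponins, 0 were called for P-DF against NP-IWP2 on Day 12, where 4.01% of 19505 genes were called, and 0 for P-IWP2, where 1.66% were. On Day 16, 2 were called for P-DF (TNNI3 and TNNC2, 15.3% of all genes) and the same 2 for P-IWP2 (17.1% of all genes). Between P-IWP2 and P-DF, 0 troponins were called on either day by edgeR, with 0% of all genes called, while 2061 genes on Day 12 and 1567 on Day 16 had an unadjusted p under 0.05. On Day 16 the log2 difference of P-IWP2 from P-DF was 0.20 ± 0.35 for TNNI3, 0.17 ± 0.35 for TNNI1, 1.17 ± 0.57 for TNNT1 and 0.83 ± 0.39 for TNNC2. None of these passed the test (adjusted p = 0.940, 0.952, 0.655 and 0.644, edgeR). Without the Day 12 library P-IWP2 replicate 5, 4 troponins were called in P-DF on Day 12 (TNNC1 and TNNT2 higher, TNNI3 and TNNT1 lower, 21.9% of 20518 genes called) and 3 in P-IWP2 (TNNC1 and TNNI1 higher, TNNT1 lower, 15.0%). The latter rest on replicate 6 alone, at log2 fold changes of 1.16 for TNNC1 and 0.55 for TNNI1. With replicate 6 left out instead, these were -1.20 and -0.84, and TNNI3 was at -1.28. The 2 libraries thus gave opposite directions for TNNC1 and TNNI1. On Day 16, 5 were then called in P-DF (32.4%) and 5 in P-IWP2 (34.8%), in both TNNI1, TNNI3, TNNT2, TNNC1 and TNNC2, all higher. TNNT1 was then higher in P-IWP2 than in P-DF on Day 16 (2.49% of all genes called). These counts over 6 genes were not tested against the shares of all genes.

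**Figure D3:**
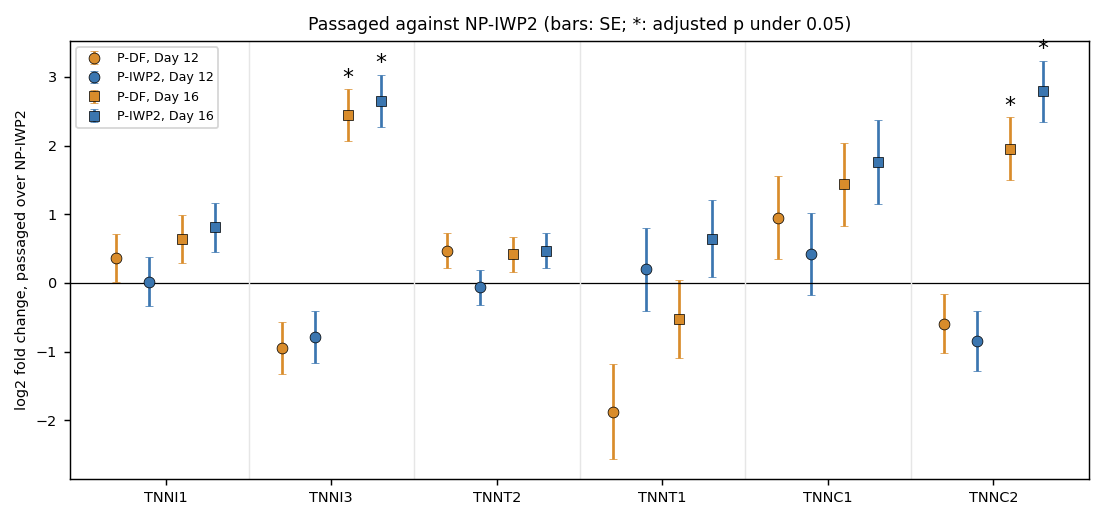
Log2 fold change of passaged over NP-IWP2 cells (points, edgeR; bars are SE) for the 6 tested troponins on Day 12 (circles) and Day 16 (squares), with a star where the adjusted p was under 0.05. TNNI3 and TNNC2 lie below 0 on Day 12 and above it on Day 16.

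Between the days, 0 troponins were called in NP-IWP2 (1.98% of all genes called), 2 in P-DF (TNNI3 and TNNT1, both higher on Day 16, 13.6%) and 4 in P-IWP2 (TNNI3, TNNT1, TNNC1 and TNNC2, all higher, 27.0%). All 4 calls in P-IWP2 were lost when only its 4 libraries were fitted (adjusted p = 0.0934 for TNNI3, 0.200 for TNNT1, 0.230 for TNNC1 and 0.145 for TNNC2, edgeR). TNNI3 rose by 3.30 ± 0.39 on the log2 scale in P-DF (adjusted p = 0.00153, edgeR) and by 3.34 ± 0.39 in P-IWP2 (adjusted p = 0.00121), and its change in NP-IWP2 was -0.10 ± 0.37 (adjusted p = 0.909). TNNC2 rose in P-IWP2 by 2.08 ± 0.42 (adjusted p = 0.00924). Its change was 0.99 ± 0.43 in P-DF (adjusted p = 0.158) and -1.56 ± 0.46 in NP-IWP2 (adjusted p = 0.117). The interactions called 1 troponin for P-DF (TNNI3, 0.482% of all genes) and 2 for P-IWP2 (TNNI3 and TNNC2, 1.84%). Without the Day 12 library P-IWP2 replicate 5, the calls were 2 in NP-IWP2 (TNNT1 and TNNC1, 17.1% of all genes), 4 in P-DF (TNNI1, TNNI3, TNNT1 and TNNC1, 29.2%) and 5 in P-IWP2 (the same 4 and TNNC2, 23.7%), all higher on Day 16. The interactions then called TNNI3 and TNNC2 for P-DF (7.62%) and these with TNNT1 for P-IWP2 (7.89%).

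**Figure D4:**
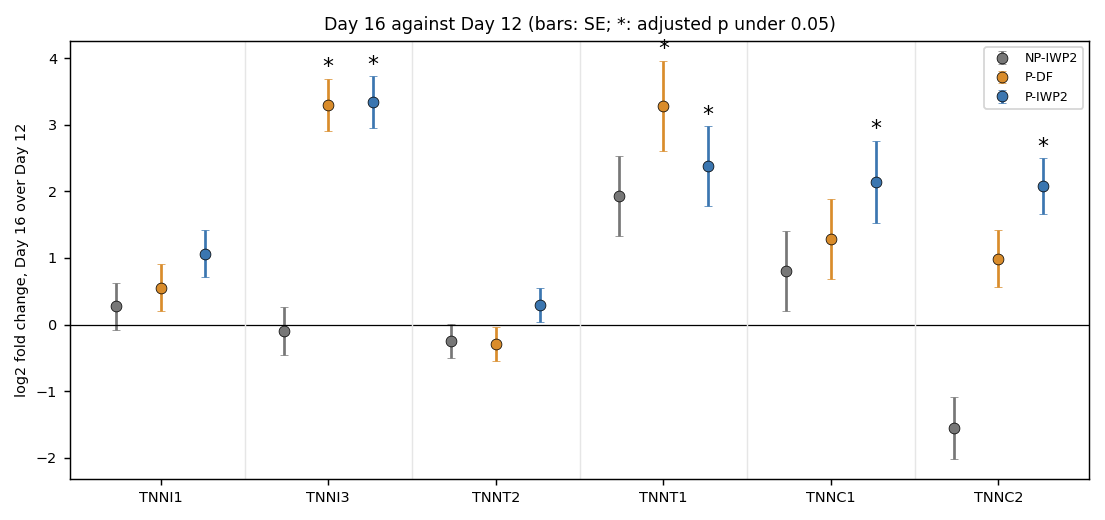
Log2 fold change of Day 16 over Day 12 (points, edgeR; bars are SE) for the 6 tested troponins in the 3 treatments, with a star where the adjusted p was under 0.05. TNNI3 stands near 3.3 in both passaged treatments and at -0.10 in NP-IWP2.

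Marker levels of several cell types also differed between the treatments. On Day 16 the 12 cardiomyocyte genes summed to 4675 and 3668 FPKM in NP-IWP2, and to 10914 to 12915 FPKM in the passaged libraries, with 7 of 12 higher and 1 lower in P-DF and 6 higher and 1 lower in P-IWP2, where 15.3% and 17.1% of all genes were called. Without the Day 12 library P-IWP2 replicate 5 there were 11 higher and 1 lower in both (32.4% and 34.8% of all genes). The 6 fibroblast genes (among them COL1A1, COL3A1 and DCN) summed to 1217 and 1179 FPKM in NP-IWP2 and to 19.65 to 29.9 FPKM in passaged libraries, and the 5 liver genes (among them AFP and TTR) to 755 and 614 FPKM against 14.0 to 20.1 FPKM. In bulk RNA, fewer cardiomyocytes and less troponin RNA per cardiomyocyte cannot be told apart, and the part of the cell makeup in the troponin levels was not tested. On Day 12 the cardiomyocyte sums of NP-IWP2 (5268 and 5968 FPKM) and P-DF (6031 and 6077 FPKM) were close, while fibroblast sums were 700.5 and 681 FPKM against 21.6 and 26.7 FPKM.

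Across the 12 libraries, which share groups and days, TNNI1 and TNNC1 had the highest correlation of the tested troponin pairs (Pearson r = 0.98 of log2 TMM-scaled CPM). TNNI3 correlated with TNNC1 (r = 0.84), TNNI1 (r = 0.81), TNNC2 (r = 0.80) and TNNT1 (r = 0.65), and TNNT2 with TNNT1 at r = -0.43. These values describe the groups and carry no test. The 5 genes most like TNNI3 were ADAMTSL5 (r = 0.98), HOPX, a cardiac transcriptional cofactor, CAMK2D, the main CaM kinase II of the heart, TTC39A and SLC12A4 (r = 0.97). Those most like TNNI1 were IDH2, MYL4, the atrial light chain of the fetal heart, MT-ND3, MRPS35 and ENO3, the muscle enolase (r = 0.98 to 0.99). TNNC1 was most like GNG5, RAB2A, ARHGAP1, PSMB3 and MYOZ2 (r = 0.99), and TNNT1 most like CENPA, EMP3, RELL1, BLOC1S3 and PELO (r = 0.97). TNNT2 was most like SVIL-AS1, ZXDC, FN3K, SPTBN1-AS2 and TPM1-AS (r = 0.94), of which 3 are antisense RNAs.

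Gene lists around troponin were counted on Day 16, where 15.3% of all genes were called in P-DF and 17.1% in P-IWP2, and 32.4% and 34.8% without the Day 12 library P-IWP2 replicate 5. Here and in the lists below, rose and fell mean a level above or below that of NP-IWP2 on Day 16, not a change over time. All 11 partners of troponin on the thin filament were tested. In P-DF 1 rose and 2 fell, and in P-IWP2 3 rose and 0 fell, with median log2 fold changes of 0.93 and 0.96 against -0.02 and -0.03 over all genes. Without replicate 5, 7 rose and 2 fell in P-DF, and 8 rose and 1 fell in P-IWP2. LMOD3, which nucleates actin filaments, rose in both (4.31 ± 0.67 and 3.11 ± 0.65). The tropomyosin TPM2 rose in P-IWP2 (1.28 ± 0.32) and was at 0.87 ± 0.32 in P-DF. TPM4 and TPM3, tropomyosins widely used outside muscle, fell in P-DF (-2.02 ± 0.45 and -1.01 ± 0.24) and were at -1.35 ± 0.44 and -0.23 ± 0.24 in P-IWP2.

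Among 14 kinases and phosphatases known to act on troponin I, 4 rose and 2 fell in P-DF and 5 rose and 1 fell in P-IWP2 on Day 16 (median 0.12 and 0.34, against 15.3% and 17.1% called and medians of -0.02 and -0.03 over all genes). Without replicate 5 the counts were 5 and 3 in P-DF and 8 and 2 in P-IWP2. PRKACA, the catalytic subunit of protein kinase A, which phosphorylates TNNI3, rose by 0.97 ± 0.21 and 1.25 ± 0.21. PRKCA, a protein kinase C, rose by 0.91 ± 0.17 and 1.09 ± 0.17, and PPP2R5A, a regulatory subunit of phosphatase 2A, by 0.61 ± 0.16 and 1.06 ± 0.16. TNNI3K, a kinase named for its binding to TNNI3, rose by 2.05 ± 0.43 and 1.48 ± 0.43, from 0.25 and 0.28 FPKM in NP-IWP2 to 0.55 to 1.06 FPKM.

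Of 8 regulators of troponin T splicing, 1 rose and 1 fell in P-DF and 2 rose and 1 fell in P-IWP2 (median 0.22 and 0.26), shares to be read against 15.3% and 17.1% over all genes. Without replicate 5, 3 rose and 1 fell in P-DF and 4 rose and 1 fell in P-IWP2. PTBP1, a repressor of muscle exons, fell in both by 1.36 ± 0.17 and 1.15 ± 0.17 on the log2 scale, and RBM20, a splicing factor of heart muscle, rose by 1.45 ± 0.24 and 1.41 ± 0.24. MBNL1, which drives the fetal to adult switch of TNNT2 exons, rose in P-IWP2 (0.59 ± 0.16) and was at 0.38 ± 0.16 in P-DF. CELF2, of a family known to oppose it, was at 0.33 ± 0.12 in P-IWP2 and 0.08 ± 0.12 in P-DF. Splice forms of TNNT2 were not measured in these counts per gene. Among 12 cardiac transcription factors, 1 rose and 1 fell in P-DF and 1 rose and 2 fell in P-IWP2 (median -0.11 and -0.03), against 15.3% and 17.1% over all genes, so these counts lay near the background. Without replicate 5, 3 rose and 2 fell in P-DF and 3 rose and 3 fell in P-IWP2. MYOCD, a coactivator of serum response factor, rose in both (0.65 ± 0.16 and 0.77 ± 0.16), and NFATC4 fell in both (-1.87 ± 0.49 and -1.67 ± 0.48). TBX5 fell in P-IWP2 (-1.52 ± 0.30) and was at -0.24 ± 0.29 in P-DF. THRB, a thyroid hormone receptor, was at -1.23 ± 0.43 in P-DF and -0.74 ± 0.42 in P-IWP2.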

How the data were processed

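RNA-seq was analysed for 12 libraries of H1 cells. Per the labels, cDNA was made with a low-input amplification module from total RNA and libraries with a SMRTbell kit, a kit for long reads. The tools named are in common use for short reads, the read length is not given in the sources used here, and FPKM compares genes of different length only if reads fall along the whole transcript. The submitters' processing notes name cutadapt 1.9.1, HISAT2 2.0.1, HTSeq 0.6.1, DESeq2 (version not given in the sources used here) and the build hg38. Strand use in counting is not given in the sources used here. The deposited counts are reads per Ensembl gene, not normalized. FPKM, also deposited, equal the counts over exon length and library total. Groups came from the sample titles.

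Counts were tested here with edgeR 4.0.16 in R 4.3.3 (TMM, filterByExpr leaving 19505 genes, quasi-likelihood test, 1 model of 6 groups, Benjamini-Hochberg adjusted p of 0.05). The SE was computed from the log2 fold change and F. Ratios were log2 of FPKM + 0.1 and were compared by exact permutation. The alternatives were DESeq2 1.42.0, total counts in place of TMM, no filter, limma 3.58.1 on log2(FPKM + 1), only the groups compared, a replicate block, pseudocounts of 1 or none, and each library left out. The tests were tried on simulated counts. Named genes were all 8 troponins, the 5 genes with the highest correlation to each of 5 troponins, and at most 4 genes per list with the smallest p on Day 16, besides markers of cell types. The members and lists were chosen with earlier results of these data known, and counts over lists without a Day 12 P-IWP2 library were added after seeing the data. Replicates of every group differed by more than sampling noise (chi-square per gene of 3.79 to 137). Tables used Python 3.11.15, pandas 2.3.3 and numpy 2.4.6, and figures matplotlib 3.10.9.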

Additional observations from a re-analysis of the deposited data

Results flagged for a closer look

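The difference from NP-IWP2 changed between Day 12 and Day 16 for 2 troponins, by the interaction term of the edgeR model. For TNNI3 the interaction was 3.402 on the log2 scale in P-DF and 3.443 in P-IWP2, with all passaged libraries below the unpassaged ones on Day 12 and above them on Day 16. P-DF differs from NP-IWP2 by passaging and by the absence of IWP2. The call was lost in 9 of 12 fits without 1 library and with the replicate block in P-DF, and in 6 of 12 fits and with only the groups compared in P-IWP2. For TNNC2 it was 3.635 in P-IWP2, on 6 to 41 counts per library, a call lost in 8 of 12 fits without 1 library and with only the groups compared. The groups of 2 libraries were too small to test for outlying samples.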

How the results depend on the processing

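Counts of called troponins moved as follows. The share of all genes called is given above only for the main fit and the fit without the Day 12 library P-IWP2 replicate 5. The other counts here have no such share beside them and do not show whether troponins moved more than genes at large. DESeq2 called 1 gene for P-DF on Day 12 and 1 for the days in NP-IWP2 (TNNT1 in both, main count 0). It also called 3 for P-IWP2 on Day 16 (TNNC1 added, main count 2) and 5 for the days in P-IWP2 (TNNI1 added, main count 4). Without the filter, counts were 3 and 4 for P-DF on Day 12 and Day 16, 1 and 4 for P-IWP2, and 1 and 1 between P-IWP2 and P-DF. They were 2, 4 and 5 for the days in NP-IWP2, P-DF and P-IWP2, and 4 for the interaction in P-IWP2. With only the groups compared, they were 5 and 4 for P-DF, 5 for P-IWP2 on Day 16, 1 between P-IWP2 and P-DF on Day 16, 3 and 4 for the days in NP-IWP2 and P-DF, 2 for the interaction in P-DF, and 0 for the days and the interaction in P-IWP2, whose Day 12 libraries then set the spread. With a pseudocount of 1 FPKM, the ratio of TNNC2 to TNNC1 in P-IWP2 against NP-IWP2 was -0.34 in place of 0.0041. Total counts and limma turned the sign of 2 values near 0 that neither they nor the main fit called. These were TNNI1 in P-IWP2 on Day 12 (-0.0065 and -0.12) and TNNT2 between days in P-IWP2 (-0.092 and -0.066). With each library left out in turn, counts ranged from 0 to 4 for P-DF on Day 12, 1 to 5 on Day 16, 0 to 3 and 2 to 5 for P-IWP2, 0 to 4 and 0 to 1 between P-IWP2 and P-DF, 0 to 2, 1 to 4 and 1 to 6 for the days in NP-IWP2, P-DF and P-IWP2, and 0 to 2 and 0 to 5 for the interactions. The ratio of TNNT1 to TNNT2 in P-IWP2 against NP-IWP2 ranged from -0.69 to 0.82, and that of TNNC2 to TNNC1 from -0.61 to 0.62. No ratio passed the threshold in any of these fits, where the few possible arrangements left little room for a small p. Signs of single troponins turned in 23 of these values, none for one called with all 12 libraries. The ranges in P-IWP2 on Day 12 were -1.20 to 1.16 for TNNC1, -0.84 to 0.55 for TNNI1, -1.46 to 0.93 for TNNT1 and -0.55 to 0.28 for TNNT2. Those of P-IWP2 against P-DF were -2.15 to 0.21 for TNNC1, -0.71 to 0.42 for TNNC2, -1.20 to 0.19 for TNNI1 and -0.32 to 0.53 for TNNI3 on Day 12, and -0.016 to 0.62 for TNNC1 and -0.14 to 0.27 for TNNT2 on Day 16. Between the days they were -0.82 to 0.38 for TNNI3 in NP-IWP2 and -0.058 to 0.77 for TNNT2 in P-IWP2, and for the interactions -0.27 to 0.14 for TNNT2 in P-DF and -0.28 to 2.11 for TNNT1 in P-IWP2. The ends of the Day 12 ranges of TNNC1, TNNI1 and TNNT1 in P-IWP2 came from leaving out 1 or the other P-IWP2 library.

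No pairing of the libraries of both days by replicate number was seen: deviations of equal numbers correlated at 0.08, -0.0015 and -0.03 in NP-IWP2, P-DF and P-IWP2. With 2 libraries per group, this cannot exclude that equal numbers mark the same culture. The replicate block gave 0 calls for the interaction in P-DF in place of 1, where TNNI3 was at 3.53 (adjusted p = 0.0746), and it moved no other count by over 1.5 times. Plain ratios changed with MANE lengths, an alternative chosen after seeing the data, by factors of 1.96 for TNNI3 to TNNI1, 0.303 for TNNT1 to TNNT2, 0.749 for TNNC2 to TNNC1 and 0.384 for TNNI3 to TNNT2, equally in all groups. Depth limits TNNC2, TNNI2 and TNNT3 most.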
